A study of Mus musculus with 24 samples.

Results

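MC38 is a mouse colon adenocarcinoma line, and its expression identity was described here from the 3 MC38 libraries that carried a non-targeting guide RNA (sgNT). They were taken by cell line and guide from the 24 bulk RNA-seq libraries of the series and set against the 9 sgNT libraries of the other lines, 3 each from LLC1 (Lewis lung carcinoma), AKR (esophageal carcinoma) and Hepa1-6 (hepatocellular carcinoma). The study itself knocked out B2m, the gene of the MHC class I light chain, in the same 4 lines (sgB2m, 3 libraries a line) to ask how loss of MHC class I affects tumours. All 4 lines were grown in the same serum-containing medium, without other cells. The labels leave unsaid whether replicates came from separate cultures and whether the cells with a guide were 1 clone or a pool, so p-values measure the spread between libraries, which may be technical, and each line is 1 example of its tumour type.

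Carcinoma lines often keep traces of the epithelium they came from. Simple epithelia build their cytoskeleton from keratin 8 and keratin 18 and seal their borders with tight junctions, and intestinal epithelium is set up by the caudal factors Cdx1 and Cdx2. Mesenchymal cells instead deposit fibrillar collagens, fibulins and small proteoglycans. The Hox genes, which lie in clusters on separate chromosomes, mark the position of a cell along the body axis, and adult cells and their tumours often keep a pattern of them.

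Counted reads per library were 28.35 to 49.72 M in MC38 sgNT, 26.15 to 28.08 M in LLC1, 28.29 to 32.9 M in AKR and 25.98 to 35.41 M in Hepa1-6. Replicate libraries differed beyond counting noise, with a chi-square of 3.9 to 24.6 per gene for pairs of one group, and the largest values were those of the MC38 pairs (8.33 to 24.6). Mitochondrial transcripts took 3.07% to 3.22% of reads in MC38 and 3.49% to 5.18% in the other lines, and their part in the differences was not tested. The labels were checked on B2m, which stood at 269, 263 and 252 CPM in MC38 sgB2m, against 866, 928 and 936 CPM in MC38 sgNT. Below, a level is in counts per M (CPM) within its library, and a difference is on the log2(CPM + 1) scale, which understates the change of weakly expressed genes. CPM does not correct for gene length, so levels are compared between lines and not between genes.

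A gene was called higher or lower in MC38 when limma's adjusted p was under 0.05 and the log2 difference was at least 1, which is 2-fold, against LLC1, AKR and Hepa1-6 alike. Of 15505 genes tested, 869 were called higher (5.6%) and 246 lower (1.59%), 1115 in all (7.19%). By the same rule LLC1 had 440 higher and 336 lower genes, AKR 563 and 276, and Hepa1-6 1239 and 1166. Of the 869 genes, 343 reached 1 CPM in fewer than 3 of the 9 other libraries, and 282 in none of them. The 343 could not have passed the filter on low values without MC38 libraries, so the filter itself favoured a higher call. Such genes are said below to have passed through MC38 libraries alone. Because of that filter, leaving out MC38 replicate 1, 2 or 3 reduced the higher calls to 587, 578 or 592. One line at a time, MC38 differed from LLC1 in 3587 genes (23.1%), of which 2173 were higher (14.0%) and 1414 lower (9.12%). It differed from AKR in 3885 genes (25.1%), 2298 higher (14.8%) and 1587 lower (10.2%), and from Hepa1-6 in 5260 (33.9%), 3231 higher (20.8%) and 2029 lower (13.1%). Across genes, mean log2 levels of MC38 had a Pearson r of 0.887 with LLC1, 0.871 with AKR and 0.747 with Hepa1-6. The term margin is used for the smallest of the 3 log2 differences of a called gene, and the adjusted p given with it is the largest of the 3.

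Most markers of intestinal epithelium were at or near 0 in MC38, although it is labelled a colon line. The series holds no colon tissue for comparison, so the origin of MC38 was not tested. Of 30 intestinal genes listed, 27 were under 1 CPM in all 3 MC38 libraries. Cdx2, the cadherin Cdh17, the keratin Krt20 and the stem cell receptor Lgr5 had 0 reads in all 3. A count of 0 allows 3 reads, or up to 0.106 CPM in the shallowest of these libraries. Cdx1 and Vil1, which encodes the brush border protein villin, had 5 reads each in MC38, summed over the libraries. Those above it included Lgals4 (galectin-4) at 2.65, 3.53 and 3.06 CPM and the mucin Muc2 at 1.62, 1.48 and 1.03 CPM. Neither set MC38 apart, since Lgals4 averaged 3.03 CPM in AKR and Muc2 averaged 6.67 CPM in LLC1. Summed over the list, MC38 libraries held 21.8 to 24.5 CPM, against 39.9 to 40.4 CPM in LLC1, 97 to 103 CPM in AKR and 1779 to 1816 CPM in Hepa1-6, the liver line. Of the 14 intestinal genes tested, limma called 0 in either direction against all 3 lines (1 was below and 0 above all lines at an unadjusted p under 0.05), with a median log2 difference from the mean of the lines of -1.43, beside 0.08 for all genes.

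The general epithelial program was low as well. Krt18, the type I partner in the simple-epithelial keratin pair, was at 0, 0.247 and 0.0805 CPM in MC38, against 46.6, 45.4 and 43.3 CPM in LLC1, 326, 328 and 315 CPM in AKR, and 1220, 1240 and 1230 CPM in Hepa1-6. Every MC38 library was far below every other library, and the margin was -5.38 (limma adjusted p 3.06e-16). Krt8, its type II partner, was at 1.79, 1.16 and 2.21 CPM in MC38, against 52.7, 56.2 and 56.8 CPM in LLC1, 424, 429 and 415 CPM in AKR, and 1030, 1040 and 1040 CPM in Hepa1-6. Its order across lines was that of Krt18, with a margin of -4.39 (limma adjusted p 8.04e-14). Elf3, an epithelial ETS factor, had 0 reads in MC38 and averaged 2.54 CPM in LLC1, 13.6 CPM in AKR and 26.7 CPM in Hepa1-6 (margin -1.82, limma adjusted p 1.28e-09). At a pseudocount of 4 CPM Elf3 was no longer past the fold threshold. Epcam had 0 reads in MC38 and in LLC1, and averaged 1.26 CPM in AKR and 51 CPM in Hepa1-6. Cdh1, the epithelial cadherin, went the other way at 12.6, 13.2 and 11.4 CPM in MC38, against at most 0.258 CPM in any LLC1 library, 0.274 CPM in any AKR library and 1.83 CPM in any Hepa1-6 library (margin 2.28, limma adjusted p 1.18e-10). Of 25 epithelial genes tested, 1 was higher and 3 were lower (4% and 12%, beside 5.6% and 1.59% of all genes), with a median of -1.84. Their summed level was 41.3 to 46 CPM in MC38, 116 to 119 CPM in LLC1, 1229 to 1266 CPM in AKR and 4113 to 4145 CPM in Hepa1-6, so MC38 was nearest to LLC1 in this respect.

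Promoters of Krt8 and Krt18, which were low together, are shown beside those of Fbln2 and Col1a2, matrix genes that were among the 3 largest positive margins. They come from RefSeq (build GRCm38.p6), and were chosen after the values had been seen. Each runs from 250 bases before to 50 bases after the annotated start, 5' to 3' on the gene's strand. Capitals mark matches on either strand to the TATA box letters TATAAA, the letters CAGGTG of the E-box bound by Snail and Zeb factors, the GC box letters GGGCGG and the CCAAT box.
Krt8, chr15:102004293-102004592, minus strand: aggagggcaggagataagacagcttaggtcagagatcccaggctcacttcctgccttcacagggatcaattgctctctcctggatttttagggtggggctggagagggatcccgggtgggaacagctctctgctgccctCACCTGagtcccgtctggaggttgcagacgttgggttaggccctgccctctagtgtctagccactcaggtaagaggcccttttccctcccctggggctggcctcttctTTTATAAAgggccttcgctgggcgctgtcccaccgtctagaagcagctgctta
Krt18, chr15:102027966-102028265, plus strand: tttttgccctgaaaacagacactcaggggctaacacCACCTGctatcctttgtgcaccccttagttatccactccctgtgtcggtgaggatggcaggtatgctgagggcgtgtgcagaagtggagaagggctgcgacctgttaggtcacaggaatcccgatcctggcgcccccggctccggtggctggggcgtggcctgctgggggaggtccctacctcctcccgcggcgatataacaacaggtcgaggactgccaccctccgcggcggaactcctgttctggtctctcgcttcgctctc
Fbln2, chr6:91212514-91212813, plus strand: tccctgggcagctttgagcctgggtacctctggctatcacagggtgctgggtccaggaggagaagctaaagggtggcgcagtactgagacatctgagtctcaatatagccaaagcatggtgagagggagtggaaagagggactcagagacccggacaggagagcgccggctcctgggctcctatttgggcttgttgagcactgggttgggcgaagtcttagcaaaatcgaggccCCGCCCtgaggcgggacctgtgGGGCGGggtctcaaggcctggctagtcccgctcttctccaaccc
Col1a2, chr6:4505368-4505667, plus strand: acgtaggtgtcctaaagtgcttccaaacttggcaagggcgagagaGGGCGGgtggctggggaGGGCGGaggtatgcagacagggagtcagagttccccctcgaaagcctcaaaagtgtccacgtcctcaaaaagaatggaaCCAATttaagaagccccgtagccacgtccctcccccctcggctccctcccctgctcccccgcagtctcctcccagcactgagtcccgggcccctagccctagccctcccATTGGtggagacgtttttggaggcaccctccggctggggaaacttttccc
The Krt8 and Krt18 windows lie 23373 bases apart on chromosome 15 and each held 1 CAGGTG match. Krt8 also held 2 TATAAA matches that overlap on opposite strands. Fbln2 held 2 GGGCGG matches, and Col1a2 held 2 GGGCGG matches and 2 CCAAT matches. Over all 27025 promoters of the table, 3827 (14.2%) held TATAAA, 5413 held CAGGTG, 9704 (35.9%) held GGGCGG and 10248 (37.9%) held the letters CCAAT. The matches describe these letters and are no measure of binding. Because 68.0% of tested genes had a promoter by symbol, no share was compared between called and other genes.

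**Figure D1:**
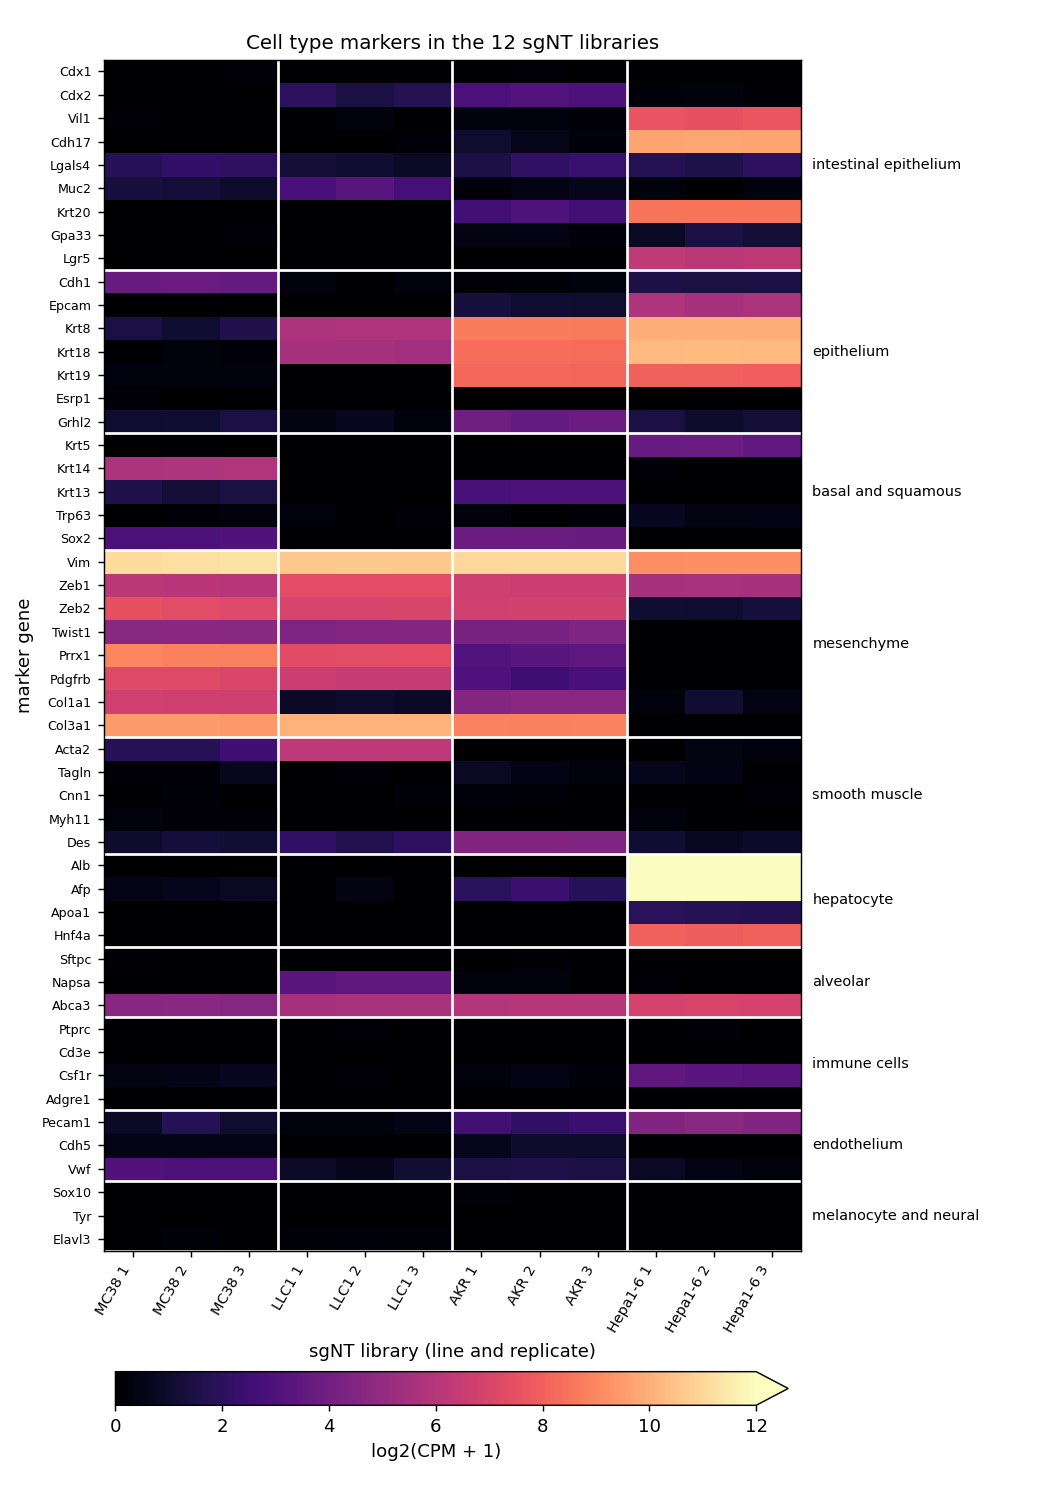
Levels of the cell type markers, as log2(CPM + 1), in the 12 sgNT libraries (columns, 3 per line, MC38 at the left), with markers grouped by cell type (rows); black is 0. The MC38 columns are dark for most intestinal, hepatocyte, smooth muscle and immune markers and for Krt8 and Krt18, and bright for Krt14 and mesenchymal markers.

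The genes with the most negative margins had varied roles. F11r, the tight junction protein JAM-A, had 0 reads in the 3 MC38 libraries, against 23.4 to 26.3 CPM in LLC1, 59.6 to 64.6 CPM in AKR and 133 to 138 CPM in Hepa1-6. Against a floor of 3 reads per library F11r was at least 297-fold lower in MC38 than in LLC1, the lowest of the other lines. Ank3, the membrane scaffold ankyrin-G, had the largest negative margin, at 1.71, 1.16 and 1.57 CPM in MC38, against 174, 174 and 173 CPM in LLC1, 124, 128 and 135 CPM in AKR, and 110, 106 and 107 CPM in Hepa1-6 (margin -5.46, limma adjusted p 1.82e-16). The 3 other lines were close together and MC38 stood apart. Nid1, the basement membrane linker nidogen-1, was at 0.406 to 0.684 CPM in MC38, against 441 to 450 CPM in LLC1, 727 to 769 CPM in AKR and 32.6 to 35.4 CPM in Hepa1-6 (margin -4.49). Itga6, the laminin-binding integrin chain, averaged 64.4 CPM in MC38, 163 CPM in LLC1, 492 CPM in AKR and 537 CPM in Hepa1-6 (margin -1.32), a call that was lost on the deposited log2 values. Of 18 integrin chains tested 2 were higher and 2 lower (11.1% each way, beside 5.6% and 1.59% of all genes). The integrin median was 0.06. The remaining genes of the 12 most negative margins were Arhgef5, Atp1b1, Fzd6, Masp1, Podxl, Selenbp1 and Ralgps2, between -4.82 for Arhgef5 and -4.25 for Ralgps2. They encode a GTPase exchange factor, a sodium pump subunit, a Frizzled receptor, a complement protease, podocalyxin, a selenium-binding protein and a Ral exchange factor. Masp1 differed with the guide, at 12.8, 10.2 and 12 CPM in MC38 sgB2m, against 1.33, 0.564 and 1.67 CPM in MC38 sgNT.

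**Figure D2:**
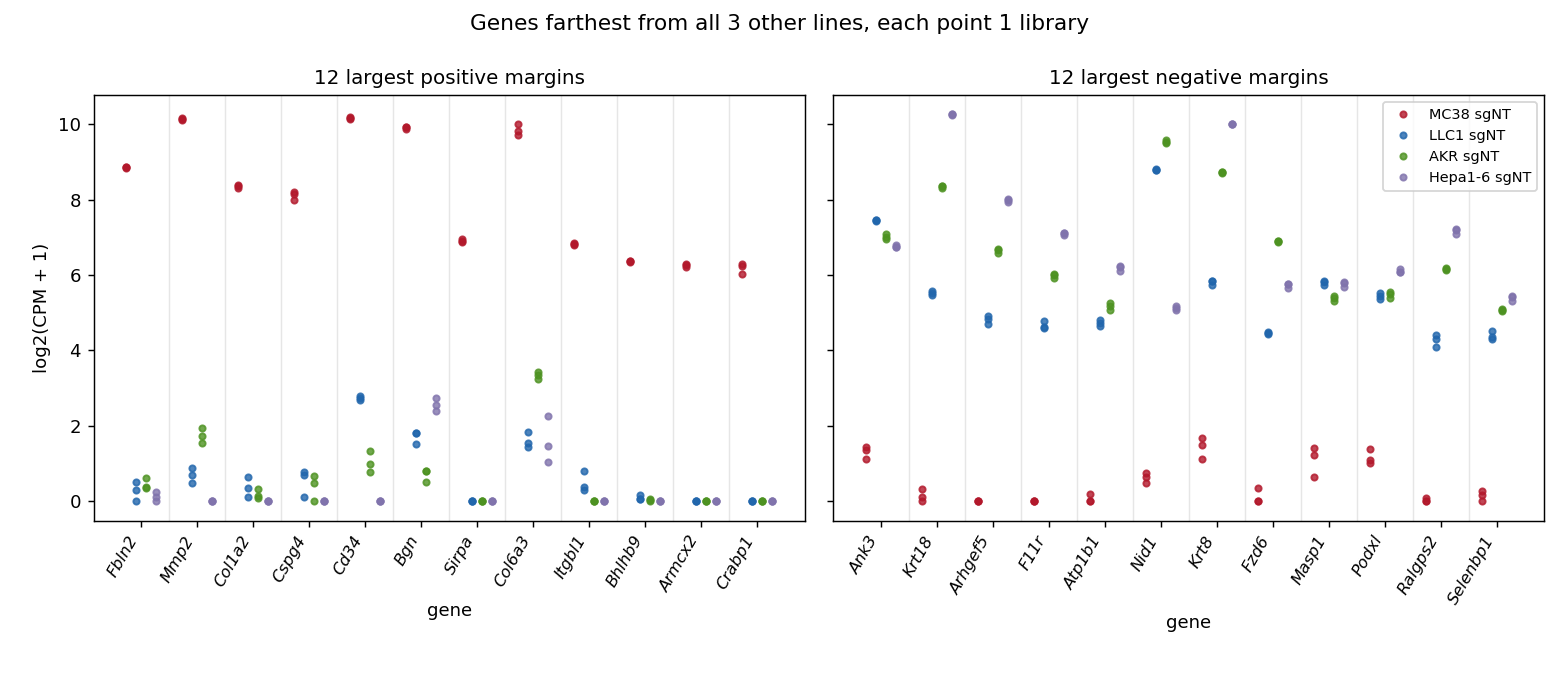
The 12 genes with the largest positive margin (left) and the 12 with the largest negative margin (right), each point 1 sgNT library on the log2(CPM + 1) scale, with MC38 at the left of each gene. For the genes on the left MC38 points lie above 6 and most points of other lines below 3; on the right MC38 points lie below 2.

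Many genes of the extracellular matrix were high in MC38. Of 32 matrix genes tested, 13 were higher than in all 3 lines (40.6%, beside 5.6% of all genes), limma called 0 lower (1 at an unadjusted p under 0.05), and the median log2 difference was 2.98, while 3 of the 13, Fbln2, Col1a2 and Loxl1, had passed the filter through MC38 libraries alone. Summed over the list, MC38 libraries held 10290 to 10750 CPM, against 5121 to 5244 CPM in LLC1, 2993 to 3081 CPM in AKR and 2029 to 2051 CPM in Hepa1-6. Fbln2, the matrix glycoprotein fibulin-2, was at 467, 465 and 462 CPM in MC38, against at most 0.421 CPM in LLC1, 0.53 CPM in AKR and 0.192 CPM in Hepa1-6. The MC38 libraries were nearly equal and none of the other 9 came near them (margin 8.41, limma adjusted p 1.92e-15). Col1a2, the second chain of type I collagen, was at 326, 334 and 315 CPM in MC38, against at most 0.574 CPM in LLC1, at most 0.247 CPM in AKR and 0 in Hepa1-6 (margin 7.98, limma adjusted p 2.9e-15). Col1a1, which encodes the other chain of that collagen, was at 107, 106 and 105 CPM in MC38, against 0.812 to 1.03 CPM in LLC1, 22.9 to 26.3 CPM in AKR and 0.257 to 1.15 CPM in Hepa1-6 (margin 2.04, limma adjusted p 3.84e-08). The chains thus differed from AKR by unequal amounts, since AKR held Col1a1 and almost no Col1a2.

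The small proteoglycan biglycan (Bgn) was at 938, 975 and 973 CPM in MC38, against 1.84 to 2.53 CPM in LLC1, 0.424 to 0.741 CPM in AKR and 4.3 to 5.68 CPM in Hepa1-6 (margin 7.35). Decorin (Dcn), its relative, was at 70.3, 68.3 and 70.9 CPM in MC38, against at most 0.727 CPM in LLC1, at most 0.177 CPM in AKR and 12.8 to 15.3 CPM in Hepa1-6 (margin 2.26). Of the collagen VI chains, which form beaded filaments around cells, Col6a3 averaged 933 CPM in MC38, 2.05 CPM in LLC1, 9.17 CPM in AKR and 2.19 CPM in Hepa1-6 (margin 6.52), whereas Col6a1 averaged 869, 271, 154 and 2.03 CPM in the same order (margin 1.68). Fbn1, the microfibril protein fibrillin-1, averaged 1030 CPM in MC38, 208 CPM in LLC1, 0.908 CPM in AKR and 5.23 CPM in Hepa1-6 (margin 2.29). Sparc, a collagen-binding matricellular protein, was at 1600, 1650 and 1710 CPM in MC38, against 106 to 113 CPM in LLC1, 518 to 523 CPM in AKR and 270 to 283 CPM in Hepa1-6 (margin 1.66). The other higher matrix genes were Col6a2, Igfbp7, Loxl1 and Timp3. Not every matrix gene followed: Thbs2, a thrombospondin, averaged 9.72 CPM in MC38 and 452 CPM in LLC1, Ogn (osteoglycin) 0.328 CPM in MC38 and 66.8 CPM in LLC1, and the type III collagen gene Col3a1 708 CPM in MC38 and 1080 CPM in LLC1. Collagen chains were also taken as a family, read from the gene descriptions after the data had been seen. Of 28 tested, 8 were higher (28.6%, beside 5.6% of all genes), and 3 of the 8 had passed the filter through MC38 libraries alone. Limma called 0 lower (also 0 at an unadjusted p under 0.05), beside 1.59% of all genes.

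Of the enzymes that cut matrix, Mmp2 (gelatinase A) stood out at 1120, 1140 and 1150 CPM in MC38, against 0.406 to 0.841 CPM in LLC1, 1.91 to 2.86 CPM in AKR and 0 in Hepa1-6 (margin 8.41, limma adjusted p 6.08e-16). Adam19, a membrane-bound sheddase, averaged 45.9 CPM in MC38 and under 1 CPM in each other line (margin 4.72), and Adamts2, the procollagen N-proteinase, 10.9 CPM in MC38 and 0.148 CPM in LLC1, with 0 in AKR and Hepa1-6 (margin 3.37). Mmp13, a collagenase, was lower in MC38 at a mean of 0.0603 CPM, against 5.92 CPM in LLC1, 26.7 CPM in AKR and 1.55 CPM in Hepa1-6 (margin -1.26), a call lost at a pseudocount of 4 CPM. In all, 5 of 25 matrix proteases tested were higher and 2 lower (20% and 8%, beside 5.6% and 1.59% of all genes). Adam19 and Adamts2 had passed the filter through MC38 libraries alone, and at a pseudocount of 4 CPM the counts were 3 and 1.

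Mesenchymal regulators and markers were shared with LLC1 and AKR to a large extent. Of 20 tested, 5 were higher in MC38 than in all 3 lines (25%, beside 5.6% of all genes), limma called 0 lower (also 0 at an unadjusted p under 0.05, beside 1.59% of all genes called lower) and the median was 1.48. S100a4, a calcium-binding protein of fibroblasts and motile cells, was at 1340, 1530 and 1600 CPM in MC38, against 261 to 281 CPM in LLC1, 176 to 185 CPM in AKR and 4.43 to 4.72 CPM in Hepa1-6 (margin 2.46, limma adjusted p 8.33e-14). Pdgfra, the receptor for platelet-derived growth factor on fibroblasts, averaged 119 CPM in MC38, 26.5 CPM in LLC1, 6.29 CPM in AKR and 2.62 CPM in Hepa1-6 (margin 2.12). Prrx1, a homeobox factor of limb and facial mesenchyme, was at 504, 463 and 445 CPM in MC38, against 156 to 168 CPM in LLC1, 7.64 to 9.79 CPM in AKR and 0 in Hepa1-6 (margin 1.54). The forkhead factor Foxc2 and the T-box factor Tbx18 completed the called genes, with margins of 2.78 and 1.63. The filament gene Vim averaged 2410 CPM in MC38, 1590 CPM in LLC1, 2120 CPM in AKR and 584 CPM in Hepa1-6 and was not called. Zeb1, a repressor of epithelial genes, averaged 67.7 CPM in MC38, 167 CPM in LLC1, 99.7 CPM in AKR and 46.6 CPM in Hepa1-6, so MC38 held less of it than LLC1. Twist1 averaged 25.3 CPM in MC38, 21.7 CPM in LLC1 and 18.1 CPM in AKR, with 0 in Hepa1-6. Among 13 contractile genes tested limma called 0 in either direction, while 5 were above and 0 below all 3 lines at an unadjusted p under 0.05, and the median was 0.54. Their summed level was 3921 to 4209 CPM in MC38, against 3040 to 3131 CPM in LLC1, 2735 to 2795 CPM in AKR and 2075 to 2091 CPM in Hepa1-6, most of it from broadly expressed genes such as the actin crosslinker Flna, at 1780, 1630 and 1520 CPM in MC38. The smooth muscle markers were low, with Acta2 at a mean of 3.35 CPM in MC38 and 73.7 CPM in LLC1, and Tagln, Cnn1 and Myh11 under 1 CPM in MC38.

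Some keratinocyte genes were present in MC38, and others were at or near 0. Of 28 basal and squamous genes listed, 8 reached 1 CPM in all 3 MC38 libraries, against 3 in LLC1, 9 in AKR and 9 in Hepa1-6. Their summed level was 106.1 to 120.5 CPM in MC38, 28.15 to 32.19 CPM in LLC1, 150.2 to 167.7 CPM in AKR and 563.5 to 579.8 CPM in Hepa1-6. Krt14, the basal keratin, was at 53.1, 54.7 and 57.7 CPM in MC38, against 0 in every LLC1 and AKR library and at most 0.0963 CPM in Hepa1-6 (margin 5.74). Krt14 had passed the filter through the MC38 libraries alone, so the filter itself favoured its call, and without any one of them it was not tested. Its usual partner Krt5 had 0 reads in MC38, and Trp63, the master factor of basal cells, averaged 0.109 CPM. Krt80 averaged 55.4 CPM in MC38, 4.01 CPM in LLC1, 3.88 CPM in AKR and 13.2 CPM in Hepa1-6 (margin 1.99). Klf5, a factor of proliferating epithelia, averaged 8.23 CPM in MC38, 20.9 CPM in LLC1, 95.1 CPM in AKR and 43.2 CPM in Hepa1-6 (margin -1.25), a call lost on the deposited log2 values and in the sgB2m libraries. Sox2 averaged 6.81 CPM in MC38 and 12.9 CPM in AKR, the esophageal line, with 0 in LLC1 and Hepa1-6. Among 14 basal and squamous genes tested, 1 was higher, Krt14, and 1 lower, Klf5 (7.14% each way, beside 5.6% and 1.59% of all genes). The median was 0.05.

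Hox levels in MC38 differed from those of the other lines to an extent that varied between clusters. Of 10 Hoxb genes listed, 9 were tested and Hoxb2 to Hoxb9 were called higher in MC38 (88.9%, beside 5.6% of all genes). All of these but Hoxb9 had passed the filter through MC38 libraries alone, so the filter itself favoured their calls. The count of 8 fell to 4 without MC38 replicate 1, 2 or 3 and to 5 at a pseudocount of 4 CPM or a filter of 5 CPM. Hoxb9 was at 43.8, 42.8 and 43.9 CPM in MC38, against 1.46 to 2.1 CPM in LLC1, 0.432 to 0.672 CPM in AKR and 0 in Hepa1-6 (margin 3.97, limma adjusted p 4.5e-13). Hoxb7 averaged 15.2 CPM and Hoxb6 14.1 CPM in MC38, against 0.579 and 0.225 CPM in LLC1, with 0 in AKR and Hepa1-6. At the ends of the cluster the pattern stopped, since Hoxb1 was not tested and Hoxb13 was at 2, 2.79 and 2.07 CPM in MC38, against 6.58, 6.62 and 4.12 CPM in Hepa1-6. Summed over the cluster, MC38 libraries held 106 to 109 CPM, against 6.71 to 8.55 CPM in LLC1, 0.432 to 0.672 CPM in AKR and 4.12 to 6.62 CPM in Hepa1-6.

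Hoxc genes were shared by MC38 and AKR, with summed levels of 145 to 164 CPM in MC38, against 0.926 to 2.14 CPM in LLC1, 64.9 to 69.2 CPM in AKR and at most 0.116 CPM in Hepa1-6. Hoxc11 averaged 34.8 CPM in MC38 and 6.84 CPM in AKR, with 0 in LLC1 and Hepa1-6 (margin 2.19). Hoxc6 was at 31.9, 34.9 and 33.8 CPM in MC38, against 0.783 to 1.22 CPM in LLC1, 8.77 to 10.2 CPM in AKR and 0 in Hepa1-6 (margin 1.75). Hoxc10, by contrast, was at 40.1, 45.4 and 48.4 CPM in MC38, against 38, 36.7 and 32 CPM in AKR, and was not called. Hoxc5, Hoxc9 and Hoxc13 made up the 5 of 8 tested that were higher (62.5%, beside 5.6% of all genes). Of these Hoxc13 had passed through MC38 alone, and at a pseudocount of 4 CPM there were 3. Of 11 Hoxa genes tested, Hoxa13 alone was called higher (9.09%, beside 5.6% of all genes), with a margin of 1.08. Leaving out MC38 replicate 2 put Hoxa13 under the fold threshold at 0.91, leaving out AKR replicate 3 at 0.96. The call was also lost at a pseudocount of 4 CPM (0.62), on quantile-normalised values (0.91), with a filter of 5 CPM, which left it untested, and in the sgB2m libraries (0.28). In the Hoxd cluster limma called 0 of 6 (1 at an unadjusted p under 0.05), with Hoxd8 at 30.4, 29.6 and 34.9 CPM in MC38, against 21.8 to 26 CPM in LLC1 and 22.2 to 26.5 CPM in AKR, while Hoxd9 had 0 reads in MC38 and averaged 22.1 CPM in LLC1. Summed over the Hoxd list, levels were 36.4 to 43.2 CPM in MC38, against 71.0 to 72.2 CPM in LLC1, 36.5 to 39.3 CPM in AKR and 0 in Hepa1-6. Hoxa sums were 94.5 to 102.4 CPM in MC38, against 59.2 to 62.03 CPM in LLC1, 102 to 110.1 CPM in AKR and 17.79 to 20.62 CPM in Hepa1-6. MC38 thus had reads of all 4 clusters, and so did LLC1 and AKR, with few of Hoxc in LLC1 and few of Hoxb in AKR.

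**Figure D3:**
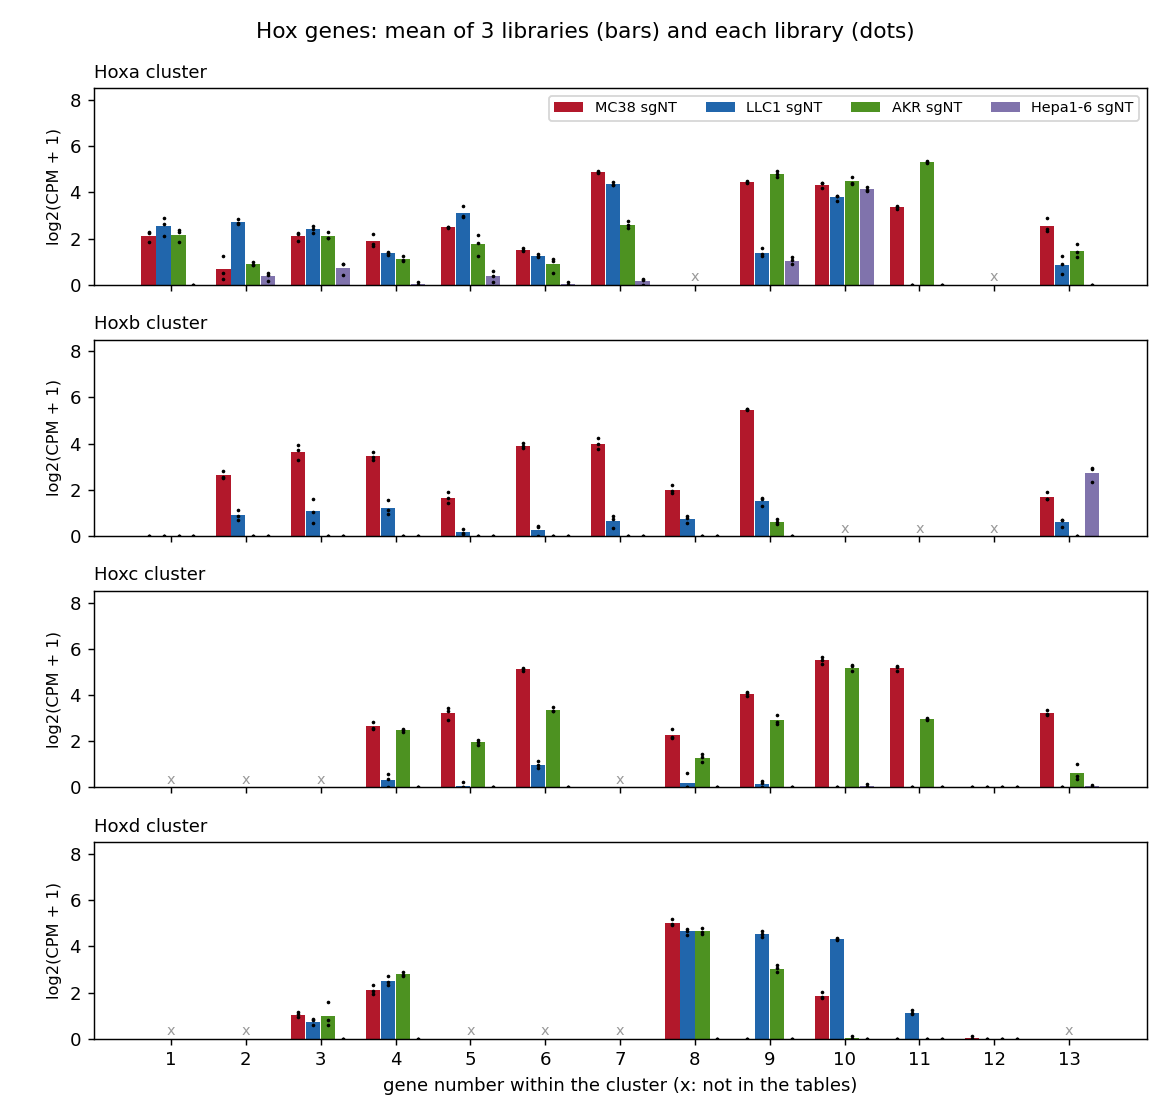
Levels of Hox genes by cluster (panels) and gene number (horizontal axis) as log2(CPM + 1); bars are means of the 3 sgNT libraries of a line, with MC38 at the left of each gene, and dots are single libraries. MC38 bars stand above those of the other lines from Hoxb2 to Hoxb9, while Hoxc10 is alike in MC38 and AKR and Hoxd9 is at 0 in MC38.

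Homeobox genes outside the Hox clusters were among the high genes as well. This family was read from gene descriptions after the data had been seen. Of 79 tested, 17 were higher in MC38 and 2 lower (21.5% and 2.53%, beside 5.6% and 1.59% of all genes). Of the 17, 9 had passed through MC38 libraries alone. En1, a midbrain and ventral limb factor, was at 8.07, 11 and 12.1 CPM in MC38, against at most 0.115 CPM in LLC1 and 0 in AKR and Hepa1-6. Emx2, a factor of forebrain and urogenital development, was at 10.6, 15.1 and 12 CPM in MC38, with 0 reads in the other 9 libraries, at least 114-fold higher against the floor of 3 reads per library. The lower ones were Rhox5, at a mean of 71.8 CPM in MC38, against 210 to 310 CPM in the other lines, and Hhex, which left the called set without MC38 replicate 2 (margin -0.99). Among factors of endoderm, Sox9 was at 274, 288 and 288 CPM in MC38, against 10.6 to 12.3 CPM in LLC1, 24.6 to 30.1 CPM in AKR and 16.7 to 20.2 CPM in Hepa1-6 (margin 3.32, limma adjusted p 1.8e-13). Klf4 averaged 456 CPM in MC38, 10.7 CPM in LLC1, 103 CPM in AKR and 95.7 CPM in Hepa1-6 (margin 2.14). Sox9 and Klf4 serve in intestinal epithelium and also in other tissues. Foxa2, a pioneer factor of endoderm, had 0 reads in MC38 and averaged 1.67 CPM in LLC1, 8.61 CPM in AKR and 69.6 CPM in Hepa1-6 (margin -1.41), a call lost at a pseudocount of 4 CPM. Together 2 of 16 endoderm factors were higher and 2 lower (12.5% each way, beside 5.6% and 1.59% of all genes).

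Several genes were on in MC38 and off elsewhere. With at least 5 CPM in every MC38 library and at most 3 reads in each of the other 9, 34 genes were found, 29 of them protein coding, and 23 had 0 reads in all 9 libraries. Sirpa, the receptor by which myeloid cells read CD47, was at 117, 119 and 123 CPM in MC38 and had 0 reads in the other lines, at least 1080-fold higher than the floor of 3 reads per library, although reads of close relatives in its family could have been assigned elsewhere. Crabp1, a carrier of retinoic acid, averaged 72.4 CPM in MC38, at least 654-fold over the floor. Tbx20, Foxl2, Tshz3, Lhx8 and En2 are further transcription factors in this group. In the opposite direction 6 genes met the same rule, Arhgef5, F11r, Herc3, Echdc2 and Zfp518a with 0 reads in MC38 and Ralgps2 with 2.

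Of the 34 genes, 9 lie on the X chromosome, among them Armcx2, Bhlhb9, Lrch2 and Prrg1. That chromosome held 509 of the 15505 genes tested. It was counted as a whole after the 9 had been seen, with these included. Of its genes 48 were called higher and 6 lower (9.43% and 1.18%, beside 5.6% and 1.59% of all genes). Of the 48, 31 had passed the filter through MC38 libraries alone, so the count is no separate evidence. Armcx2, an armadillo-repeat gene, was at 75.6, 77 and 73.6 CPM in MC38 and had 0 reads in the other 9 libraries, and Bhlhb9, a relative on the same chromosome, was at 81.6, 81.1 and 81.8 CPM, against at most 0.111 CPM elsewhere. Xist, the RNA that silences an X chromosome, was at 0.948, 0 and 0.121 CPM in MC38, against 2350, 2280 and 2140 CPM in LLC1, 0.247, 0.0926 and 0.0608 CPM in AKR, and 1410, 1090 and 1270 CPM in Hepa1-6. MC38 and AKR were thus without it and LLC1 and Hepa1-6 with it. Chromosome 8 had the highest share of higher calls, 81 of 827 (9.79%, beside 5.6% of all genes, with 20 of the 81 through MC38 libraries alone). It also had the highest median log2 difference, 0.38, with medians of 0.27, 0.44 and 0.39 against LLC1, AKR and Hepa1-6. In the sgB2m libraries its median was 0.27. The lowest median was -0.17, on chromosome 1, with medians of -0.26, 0.03 and -0.15 against the lines in the same order. In the sgB2m libraries the chromosome 1 median was -0.0. DNA copy number was not measured.

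**Figure D4:**
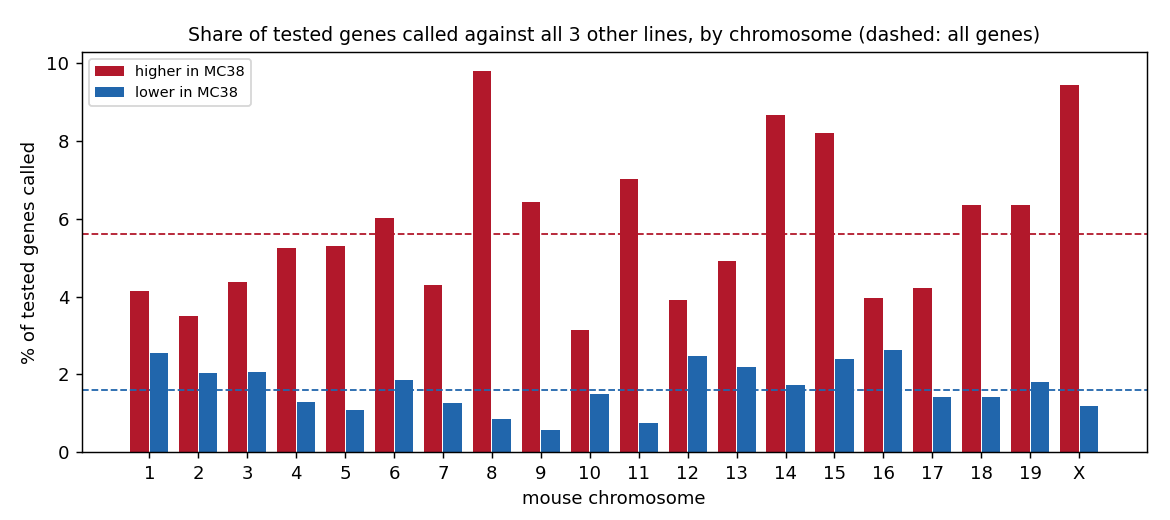
Percentage of tested genes called higher (red) or lower (blue) in MC38 sgNT than in all 3 other lines, by chromosome, with dashed lines at the shares over all genes (5.6% and 1.59%). Chromosomes 8, X, 14 and 15 have the tallest red bars, at 9.79%, 9.43%, 8.65% and 8.2%; on X, 31 of the 48 genes behind the bar passed the filter through MC38 libraries alone.

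On the cell surface, MC38 was marked by Cd34 and Ly6 genes. Cd34, a sialomucin of vascular, blood and stromal progenitors, was at 1140, 1150 and 1170 CPM in MC38, against 5.39 to 5.97 CPM in LLC1, 0.707 to 1.52 CPM in AKR and 0 in Hepa1-6 (margin 7.44, limma adjusted p 2.44e-15). Ly6a (Sca-1) was at 653, 703 and 739 CPM in MC38, against 27.3 to 34.1 CPM in LLC1, 94.1 to 99.9 CPM in AKR and 155 to 157 CPM in Hepa1-6 (margin 2.15), and Ly6c1 averaged 701 CPM in MC38, 85 CPM in LLC1, 82.6 CPM in AKR and 11.1 CPM in Hepa1-6 (margin 3.03). Ly6c1 and Ly6c2 are near-identical, so the split of reads between them is uncertain. Cspg4, the proteoglycan NG2 of pericytes, averaged 279 CPM in MC38 and under 1 CPM in each other line (margin 7.6). L1cam, a neural adhesion molecule, averaged 47.6 CPM in MC38 and 4.04 CPM in LLC1, with less in AKR and Hepa1-6 (margin 3.27). Of 33 genes tested in this list 13 were higher and 2, Alcam and Podxl, lower (39.4% and 6.06%, beside 5.6% and 1.59% of all genes). The median was 1.25, and 2 of the 13 had passed the filter through MC38 libraries alone. Among markers of blood and vessel cells, Ptprc and Cd3e were at or near 0 and the T, NK and B cell list summed to 1.22 to 2.07 CPM in MC38 libraries. The myeloid list summed to 47.5 to 53.9 CPM in MC38, against 18.7 to 24.7 CPM in LLC1, 89.7 to 94.8 CPM in AKR and 37.9 to 39.3 CPM in Hepa1-6, nearly all of it in MC38 from Cd14, at 28, 29.2 and 24.4 CPM, and Cd68, at 22.1, 24.2 and 22.3 CPM, and limma called 0 of its 5 tested genes (also 0 at an unadjusted p under 0.05). The 13 endothelial genes summed to 12.5 to 14.6 CPM in MC38, against 79.5 to 90.9 CPM in LLC1, 16.7 to 17.8 CPM in AKR and 31.5 to 38 CPM in Hepa1-6, with Vwf called higher (margin 1.48) and Egfl7 lower (margin -1.27), both calls lost at a pseudocount of 4 CPM.

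Among signals and receptors, the Wnt pathway had 6 of 31 tested genes higher and 1 lower (19.4% and 3.23%, beside 5.6% and 1.59% of all genes), with 4 lower at a pseudocount of 0.25 CPM and 6 on the deposited log2 values. Wnt5a, a non-canonical ligand, was at 33.6, 34.3 and 31.6 CPM in MC38, against 2.49 to 4.54 CPM in LLC1, 0.0912 to 0.556 CPM in AKR and at most 0.847 CPM in Hepa1-6 (margin 2.86), and Ror2, its receptor, averaged 10.8 CPM in MC38 and 0.713 CPM in LLC1 (margin 2.78). Dkk2, a secreted modulator, averaged 158 CPM in MC38, 2.09 CPM in LLC1 and 0 in AKR and Hepa1-6 (margin 5.69). The receptor Fzd2 was higher (margin 2.44), whereas Fzd6 was lower at a mean of 0.0941 CPM, against 21 CPM in LLC1, 118 CPM in AKR and 52.3 CPM in Hepa1-6 (margin -4.34). Egfr was at 3.25, 3.07 and 2.07 CPM in MC38, against 20.7 to 24 CPM in LLC1, 35.8 to 43.4 CPM in AKR and 167 to 171 CPM in Hepa1-6 (margin -2.64, limma adjusted p 3.92e-11). Its ligand Areg was lower too, at a mean of 0.0964 CPM in MC38, against 7.06 CPM in LLC1, 71.3 CPM in AKR and 28.8 CPM in Hepa1-6 (margin -2.87). Of 33 growth factors tested 5 were lower (15.2%, beside 1.59% of all genes), Angpt1, Areg, Gas6, Kitl and Pdgfc, and 1 higher (3.03%, beside 5.6%), the activin chain Inhba, at a mean of 46 CPM in MC38 and 1.53 CPM in LLC1, the next highest line (margin 4.2).

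Of 40 chemokine and cytokine genes tested, 5 were higher and 2 lower (12.5% and 5.0%, beside 5.6% and 1.59% of all genes). Il34, a ligand of the macrophage receptor Csf1r, was at 95.3, 104 and 98.3 CPM in MC38, against 6.62 to 8.26 CPM in LLC1, 12.3 to 14 CPM in AKR and 0.616 to 0.963 CPM in Hepa1-6 (margin 2.81, limma adjusted p 7.89e-12). The monocyte chemokine Ccl7 averaged 151 CPM in MC38, 72.5 CPM in LLC1, 2.17 CPM in AKR and 0.0813 CPM in Hepa1-6 (margin 1.05, a call lost with median-of-ratios scaling), and its relative Ccl8 15.2 CPM in MC38 and under 1 CPM in the other lines (margin 3.8). Tslp and Ccl9 were also higher. The neutrophil chemokine Cxcl5 was at 0, 0 and 0.161 CPM in MC38, against 288 to 304 CPM in LLC1, 1.45 to 2.23 CPM in AKR and 16.2 to 16.4 CPM in Hepa1-6 (margin -1.46), and in the sgB2m libraries MC38 was above the AKR line. Ccl20, a ligand for lymphocyte receptor Ccr6, had 0 reads in MC38 (margin -1.71). Calls for Cxcl5 and Ccl20 were lost at a pseudocount of 4 CPM.

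Of 26 tested genes of MHC class I presentation limma called 0 in either direction (3 were above and 1 below all lines at an unadjusted p under 0.05), and the median was 0.16. H2-K1, a class I heavy chain, averaged 359 CPM in MC38, 56.4 CPM in LLC1 and 383 CPM in AKR, and was listed at 0 in Hepa1-6. Of the class II pathway 3 genes were tested and 1 was higher (33.3%, beside 5.6% of all genes). This was H2-DMb1, a chain of the peptide-loading factor H2-DM, at 24.5, 23 and 24.4 CPM in MC38, against 8.23 to 10.6 CPM in LLC1, 0.0912 to 0.278 CPM in AKR and 1.35 to 2.35 CPM in Hepa1-6 (margin 1.33, limma adjusted p 7.41e-07). Of 42 interferon response genes tested 1 was higher (2.38%, beside 5.6% of all genes), Ifit3, at a mean of 6.58 CPM in MC38, 1.39 CPM in LLC1, 0.391 CPM in AKR and 1.94 CPM in Hepa1-6 (margin 1.36, a call lost on quantile-normalised values and at a pseudocount of 4 CPM). Cd274, which encodes the checkpoint ligand PD-L1, was at 1.81, 1.13 and 2.35 CPM in MC38, against 10 to 12.6 CPM in LLC1, 6.12 to 7.26 CPM in AKR and 4.93 to 6.06 CPM in Hepa1-6 (margin -1.28, limma adjusted p 2.49e-06), a call lost at a pseudocount of 4 CPM. Ulbp1, a ligand of the NK receptor NKG2D, was at 205, 178 and 168 CPM in MC38, against 81.4 to 86.3 CPM in LLC1, 2.19 to 3.46 CPM in AKR and 38.8 to 41.4 CPM in Hepa1-6 (margin 1.13). The DNA sensor Aim2 averaged 11.1 CPM in MC38, 121 CPM in LLC1, 138 CPM in AKR and 85.3 CPM in Hepa1-6 (margin -2.84).

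In the p53 pathway the factor was high and some of its targets low. Trp53 was at 452, 462 and 458 CPM in MC38, against 176 to 182 CPM in LLC1, 183 to 185 CPM in AKR and 107 to 114 CPM in Hepa1-6 (margin 1.31, limma adjusted p 1.31e-13). The targets Eda2r and Trp53inp1 averaged 1.24 and 6.93 CPM in MC38, with margins of -2.31 and -1.5, and neither was called in the sgB2m libraries. Mdm4, an inhibitor of p53, averaged 116 CPM in MC38, against 236 to 328 CPM in the other lines (margin -1.03), a call lost without MC38 replicate 2 or 3 (-0.98 and -0.97). Mdm2 and Cdkn1a, the best-known targets, averaged 44.5 and 136 CPM in MC38 and were not called. Of 29 genes tested 1 was higher and 3 were lower (3.45% and 10.3%, beside 5.6% and 1.59% of all genes). Among 58 metabolic genes 3 were higher, a share of 5.17% near that over all genes, and 6 were lower (10.3%, beside 1.59% of all genes). Without MC38 replicate 1 the higher ones were 1, and in the sgB2m libraries 3 were lower. Aldh3a1, an aldehyde dehydrogenase, averaged 132 CPM in MC38 and at most 4.02 CPM in another line (margin 4.76), and Slc7a11, the cystine transporter, 30.3 CPM in MC38, 143 CPM in LLC1, 621 CPM in AKR and 343 CPM in Hepa1-6 (margin -2.21). Slc7a2, an arginine transporter, was at 119, 101 and 95.3 CPM in MC38, against 0 in LLC1 and AKR and 44.6 to 51 CPM in Hepa1-6. Its margin was 1.08, and the call was lost without MC38 replicate 1 (0.99) and with median-of-ratios scaling (0.94). In MC38 sgB2m Slc7a2 was at 0.24, 0.511 and 0.235 CPM.

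**Figure D5:**
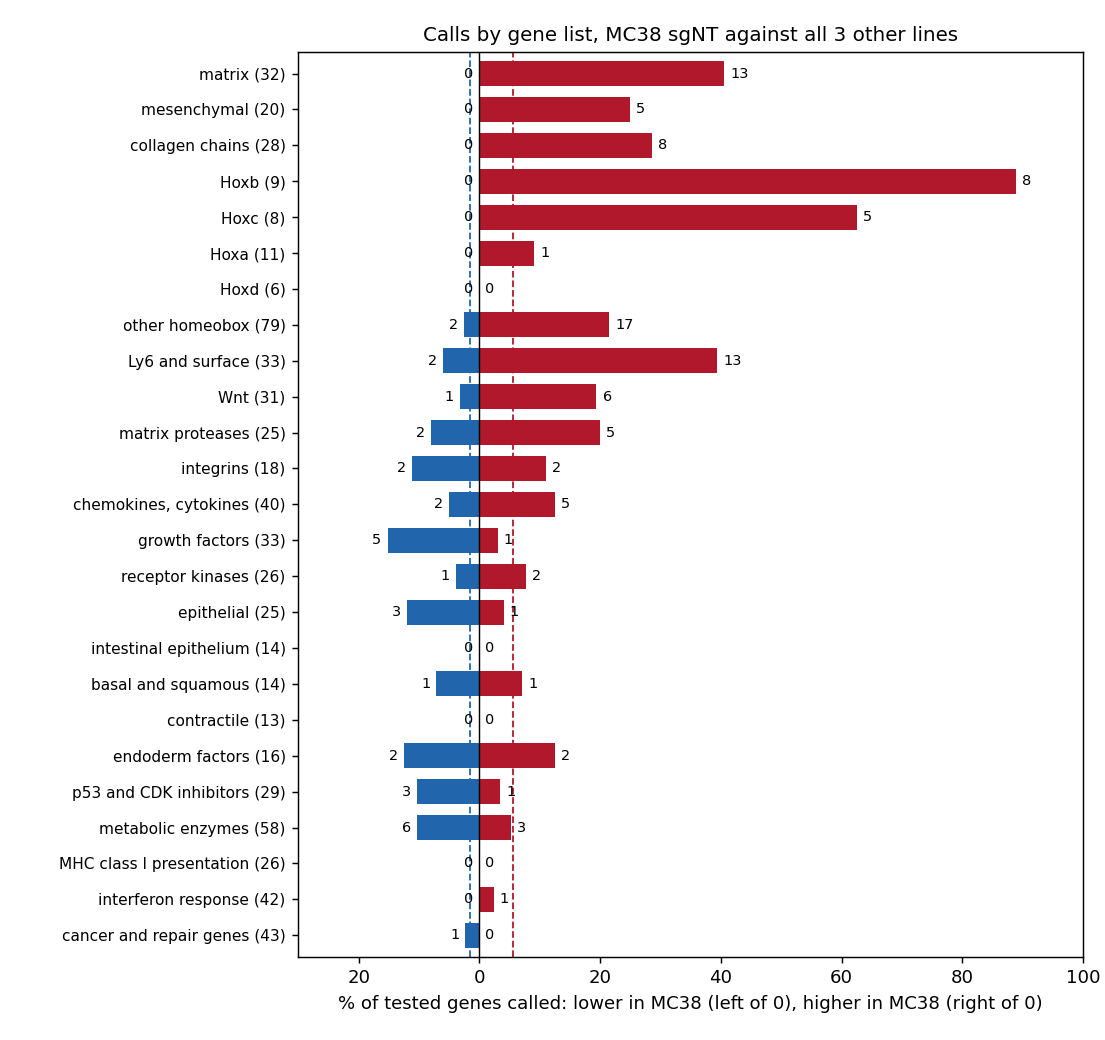
Percentage of the tested genes of each list (number tested in parentheses) called higher (red, right) or lower (blue, left) in MC38 sgNT than in all 3 other lines; numbers at the bars are genes, and dashed lines mark the shares over all genes (5.6% and 1.59%). Hoxb, Hoxc, matrix and surface lists reach furthest right, and growth factors furthest left.

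The same contrasts were fitted on the sgB2m libraries of the 4 lines, which share no library with those above. There MC38 had 788 genes higher and 242 lower than all 3 lines. Of the higher genes 547 were in both lists, which is 62.9% of the sgNT list and 69.4% of the sgB2m list. Of the lower genes 160 were in both, 65.0% and 66.1%. In the sgB2m libraries 786 of the 869 genes lay above every other line and 228 of the 246 below every other line. Mmp2 was at 1090, 1100 and 1070 CPM in MC38 sgB2m, against 1120, 1140 and 1150 CPM in MC38 sgNT. Fbln2 was at 724, 739 and 728 CPM in MC38 sgB2m, against 467, 465 and 462 CPM in MC38 sgNT. Col1a2 was at 146, 134 and 134 CPM in MC38 sgB2m, against 326, 334 and 315 CPM in MC38 sgNT, still far above the other lines. Prrx1 and Timp3 were not called in the sgB2m libraries (smallest log2 difference 0.88 and 0.76). Of the 1115 genes called in sgNT, 159 (14.3%) had a guide difference in MC38 that departed from that of the other lines. The share was 3.54% over all genes tested for it. The 1115 genes were chosen by their level in the same MC38 sgNT libraries, which by itself favours such differences. How much of the gap this makes was not tested.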

How the data were processed

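Bulk RNA-seq of 24 libraries (8 groups of 3) was used, and the results above rest on the 12 sgNT libraries. The authors deposited log2 values of normalised counts in a separate table for each line. The submitters' processing notes name mm10 as the build, with STAR, DESeq2 and FastQC 0.11.5 as tools. Versions of the first 2, the gene counter and its use of strand are not given in the sources used here, so reads of overlapping, antisense or near-identical genes may be split. After removal of a pseudocount of 1, the values of each library were whole multiples of 1 step (100% within 0.05 reads), which gave the reads per gene. Each table was normalised by the authors within its line, so CPM was recomputed from each column's own total, and genes not listed for a line were set to 0.

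Genes with at least 1 CPM in at least 3 of 12 libraries were tested on log2(CPM + 1) with limma 3.58.1 in R 4.3.3, by its moderated test (two-sided, with intensity trend), 1 mean per line and Benjamini-Hochberg adjustment over the genes tested. Tables and plots were made with Python 3.11.15. The procedure was tested on simulated data. The interaction of line and guide was fitted on the 24 libraries. Replicate numbers did not pair libraries, as correlations of same-numbered deviations ran from -0.09 to 0.066 over 18 pairs. Gene IDs were placed with GENCODE M21 (34787 of 34866). Libraries were grouped by the cell line and guide in their titles. The members, the 36 gene lists and the rule for named genes were chosen with earlier results of these data known. Named genes are the 12 largest margins in each direction, up to 4 called members a list in each direction, cell type markers, Hox genes and genes at the floor; every other gene named, such as Thbs2, Ogn, Sparc, Fbn1, H2-K1, Mdm2 and Gas6, was chosen after its values were seen. A few of the genes this rule names are not reported here. Folds against 0 reads use 3 reads per library and cover counting error only. Alternatives changed the pseudocount, filter, scaling, trend, block, fold threshold, guide and libraries.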

Additional observations from a re-analysis of the deposited data

Results flagged for a closer look

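For some genes called in MC38 sgNT, the difference between sgB2m and sgNT libraries was not the same in MC38 as in the other lines. The value for each is the log2 difference of MC38 sgB2m minus sgNT, less the mean of the same difference in LLC1, AKR and Hepa1-6, tested by limma on 24 libraries at an adjusted p under 0.05 and an absolute size of at least 1. Among genes higher in MC38 sgNT it was -6.41 for Slc7a2, which averaged 0.328 CPM in MC38 sgB2m and 105 CPM in MC38 sgNT. It was -2.43 for Dkk2, -2.18 for Tslp, -1.56 for Ppp1r14c, -1.53 for Klk8, -1.29 for Col1a2, -1.28 for Itga8, -1.24 for Il34 and -1.14 for Dlx3. It was positive for L1cam at 1.20, Aldh3a1 at 1.30, Ccl9 at 1.59, Col1a1 at 1.66 and Dcn at 2.13. Col1a1 averaged 314 CPM in MC38 sgB2m and 106 CPM in MC38 sgNT, so the chains of type I collagen moved in opposite directions. Among genes lower in MC38 sgNT the value was -1.58 for Ccl20, -1.48 for Egfr and -1.14 for Krt8. It was 1.03 for Aim2, 1.03 for Alcam, 1.17 for Angpt1, 1.30 for Pdgfc, 2.07 for Cxcl5 and 2.87 for Masp1. For Ccl20 and Angpt1 the difference within MC38 itself was 0.1 and 0.15, near 0 CPM with both guides. Whether the sgB2m and sgNT cells of MC38 were separate clones is not given in the sources used here, so guide and clone cannot be told apart, and the genes were chosen by their level in the same MC38 sgNT libraries.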

How the results depend on the processing

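The main counts were 869 higher, 246 lower, and 3587, 3885 and 5260 calls against LLC1, AKR and Hepa1-6. A pseudocount of 4 CPM gave 522 higher, 151 lower, 2370 against LLC1 and 2585 against AKR. The deposited log2 values gave 1412 higher and 5494 against LLC1, with a median log2 difference over all genes of 0.41 in place of 0.08. A 4-fold threshold gave 285 higher, 78 lower, and 1194, 1352 and 2371 against the lines in that order, and no fold threshold gave 3122, 1569, 11719, 11639 and 12511. Calling against 2 lines gave 1427 higher without LLC1, and 546, 421 and 548 lower without LLC1, AKR and Hepa1-6. Leaving out 1 library gave 578 to 875 higher and 241 to 250 lower. The smallest counts of higher genes came without an MC38 library, since genes that rest on those libraries then fail the filter. The smallest count of lower genes, 241, came without AKR replicate 3. The replicate block, with numbers that do not pair libraries, gave 870 higher and 246 lower. In the sgB2m libraries the margin changed sign for Tslp (-0.65), Cxcl5 (1.68), Eda2r (0.15) and Slc7a2 (-5.5); the cause was not tested. Of 132 named called genes, 88 kept the call in every alternative that tested them. Without MC38 replicate 1, 2 or 3, 91, 89 and 89 of the 132 kept it and 1, 3 and 3 lost it. The rest were not tested there, since they no longer passed the filter. Depth limits genes under about 1 CPM.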
